A study of Ovis aries with 10 samples.

Results

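Mitochondrial ribosomal proteins are the protein subunits of the ribosome inside mitochondria, and their genes carry symbols that begin with MRPL for the large subunit and MRPS for the small one. The members described here are the 65 rows of the authors' deposited table of differential expression whose symbol is MRPL or MRPS, a number and at most 1 further letter, out of 19316 rows in all. By symbol 42 belong to the large subunit and 23 to the small subunit, and no member had 2 rows. RNA came from adrenal glands of sheep fetuses at 102 days of gestation, with 5 libraries of an endotoxin group and 5 of a control group, which were injected with endotoxin and with saline solution. Endotoxin is lipopolysaccharide from the outer membrane of Gram-negative bacteria, which provokes inflammation. Each group held 3 libraries labelled female and 2 labelled male. The titles number the endotoxin libraries as LPS and the control libraries as WT, a term they do not explain, and name no altered gene. The labels name no breed or dose, and do not say whether each library is a separate fetus.

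The mitochondrial ribosome translates the few messenger RNAs encoded by mitochondrial DNA, all of which specify subunits of the respiratory chain and ATP synthase. Its ribosomal RNAs are made inside the organelle, while every ribosomal protein is encoded in the nucleus, made in the cytosol and imported. Some of these proteins descend from the bacterial ancestor's ribosome, and others occur in mitochondria only. In the adrenal cortex mitochondria also hold the enzymes that start and finish cortisol synthesis, but those enzymes are nuclear-encoded and are not products of this ribosome.

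The libraries held between 12494386 and 18324516 estimated counts. The tables with a value per library carry gene IDs of a cattle form that no table used here pairs with symbols, so the members are known only through the authors' group means and the authors' model, and the spread between libraries enters through the authors' standard errors. The authors' deposited table calls its groups A and B, and B was read as endotoxin. Among changes of at least 8-fold, the table with labelled libraries had 16 upward and 3 downward with endotoxin, and the authors' deposited table had 19 upward and 3 downward in B. If A and B were the other way round, every direction below would turn. The labelled tissue was checked on its markers, and all 7 adrenal cortex markers were in the authors' deposited table at a mean of 1 TPM or more (a level scaled by transcript length and by the library's total). Of the 6 chromaffin cell markers 4 had a row, among them CHGA, a protein of secretory granules, at 3648 TPM with endotoxin and 4096 TPM in controls in the authors' deposited table.

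The genes of the mitochondrial ribosome lay slightly higher in fetal adrenals of the endotoxin group than in control adrenals. Of the 65 members 63 had, in the authors' deposited table, a positive log2 fold change (endotoxin over control, on the scale of the authors' count model), with a median of 0.22 and an interquartile range of 0.14 to 0.33. Of the 14402 rows whose mean reached 1 TPM or more, 51.8% were positive, and their median was 0.01. Few members passed a test singly. By the authors' adjusted p under 0.05, 3 members rose, none fell and 62 did not pass. That is 4.62% of the members rising, against 1.29% of all rows with a p, while 0.426% of all rows fell. At an unadjusted p under 0.05 the authors' deposited table had 20 members higher and 0 lower. That is 30.8% of the members higher, against 7.58% of all rows with a p higher and 5.35% lower. Many rows lie at lower levels than any member, whose means were all above 5 TPM. Of the 10360 rows whose mean reached 5 TPM, 56.3% were positive, with a median of 0.04. Of these rows 1.64% rose by adjusted p, and 10.5% were higher at an unadjusted p under 0.05. All 65 members had a mean of at least 1 TPM and a p, so none of them was left out of these counts. Genes of the family without a row under such a symbol could not be counted.

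The authors' standard errors of the members' log2 fold changes ran between 0.11 and 0.23, with a median of 0.16. Of the members in the authors' deposited table, 43 lay more than 1 standard error above 0, and 19 more than 2. The remaining 22 lay within 1 standard error of 0, including both members with a negative value. The ratio of the group means, endotoxin over control, ran between 0.891 and 1.52, so no member differed by as much as 2-fold.

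**Figure D1:**
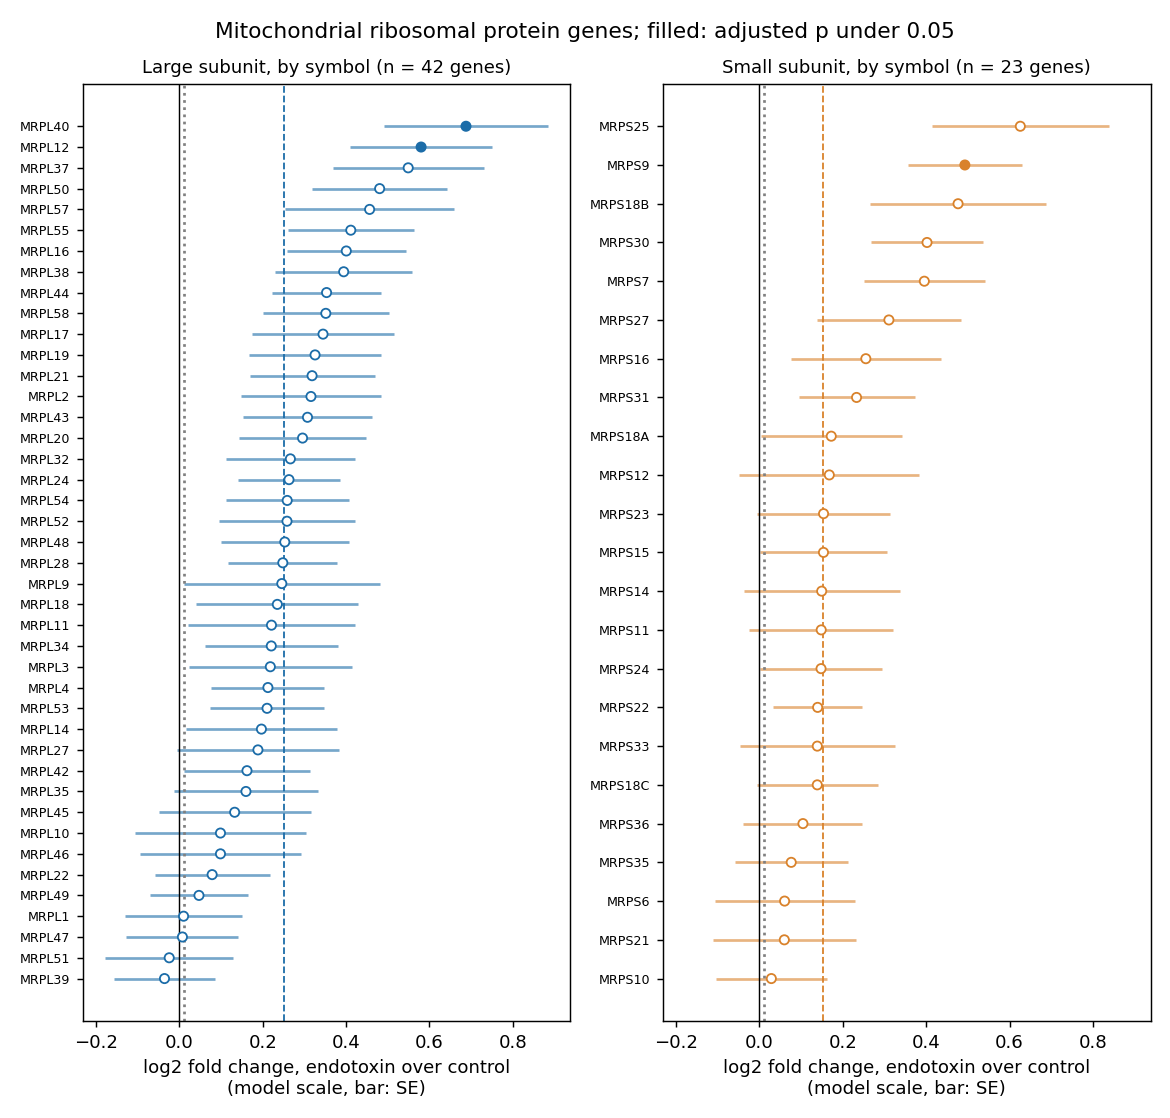
Log2 fold change (endotoxin over control, model scale) of each of the 42 MRPL genes, left, and the 23 MRPS genes, right, ordered by value, with bars for the authors' standard error. Filled points (MRPL40, MRPL12 and MRPS9) passed an adjusted p under 0.05; the dashed line is the subunit's median, the dotted line the median of all rows whose mean reached 1 TPM, and nearly all points sit right of 0.

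MRPL40, a mitochondria-specific protein of the central protuberance at the top of the large subunit, had the largest value of all members. Its group means were 104.6 TPM with endotoxin and 69.0 TPM in controls in the authors' deposited table. On the log2 scale it rose by 0.69 ± 0.20 (SE, adjusted p = 0.0360) in the authors' deposited table. MRPL12 is the counterpart of the bacterial stalk protein that recruits translation factors to the ribosome, and it also binds the mitochondrial RNA polymerase. It stood at 124 TPM with endotoxin and 88.9 TPM in controls, and rose by 0.58 ± 0.17 (SE, adjusted p = 0.0404) in the authors' deposited table. MRPS9, the counterpart of a bacterial protein in the head of the small subunit, was less abundant, at 43.8 TPM with endotoxin and 33.9 TPM in controls in the authors' deposited table. It rose by 0.49 ± 0.14 (SE) and had the smallest adjusted p of the family, 0.0267, in the authors' deposited table. The 3 genes that rose thus come from both subunits, and MRPL12 and MRPS9 are of bacterial descent while MRPL40 is specific to mitochondria.

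Just beyond the threshold stood 3 further members with an adjusted p under 0.1, which 2.05% of all rows passed upward and 0.832% downward. MRPL37, a mitochondria-specific protein of the large subunit, was at 0.55 ± 0.18 (SE, adjusted p = 0.0887) in the authors' deposited table. MRPS30 was at 0.40 ± 0.13 (SE, adjusted p = 0.0970) and MRPL50 at 0.48 ± 0.16 (SE, adjusted p = 0.0993) in the authors' deposited table. MRPS25, a mitochondria-specific protein of the small subunit, had the second largest value of the family but a wider error, at 0.63 ± 0.21 (SE, adjusted p = 0.107) in the authors' deposited table. In the authors' deposited table MRPS25 had 283 TPM with endotoxin and 189.9 TPM in controls, a wider gap in TPM than any other member but MRPL57.

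The other 13 members with an unadjusted p under 0.05 had adjusted p-values between 0.133 and 0.381, so none of them passed. They were MRPL16, which lies near the peptidyl transferase centre, MRPL55, MRPS7, MRPL44, MRPL38, MRPL58, MRPL57, MRPS18B, MRPL24, MRPL21, MRPL19, MRPL17 and MRPL43, with log2 fold changes between 0.26 (MRPL24) and 0.48 (MRPS18B) in the authors' deposited table. MRPL58, also known as ICT1, is a peptidyl-tRNA hydrolase that frees stalled ribosomes and has become a structural subunit. It was at 119 TPM with endotoxin and 100.4 TPM in controls in the authors' deposited table. MRPL44, whose fold is that of an RNase III enzyme, was at 24.5 TPM with endotoxin and 20.8 TPM in controls in the authors' deposited table.

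At the other end of the family 6 members lay closest to no difference or below it. MRPL39, which shares a domain with threonyl-tRNA synthetases, was at -0.04 ± 0.12 (SE, adjusted p = 0.972), and MRPL51 at -0.02 ± 0.15 (SE, adjusted p = 0.974), in the authors' deposited table. These were the only negative values among the 65 members on the model scale. MRPL47 at 0.0076, MRPL1 at 0.01, MRPS10 at 0.03 and MRPL49 at 0.05 followed in the authors' deposited table. MRPL1, the counterpart of a mobile bacterial stalk protein, had 17.1 TPM with endotoxin and 18.5 TPM in controls in the authors' deposited table. Its mean was thus lower with endotoxin although its model value was above 0, which is a difference of scale.

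That difference of scale touched the whole table. On the scale of mean TPM plus 1, the rows whose mean reached 1 TPM had a median of -0.10, and 34.1% of them were positive. On that scale 53 of the 65 members were positive and 12 negative, with a median of 0.11. MRPL39, MRPL51, MRPL47, MRPL1, MRPS10, MRPL49, MRPS21, MRPS6, MRPS35, MRPL22, MRPL46 and MRPL10 are the members with a lower mean with endotoxin. Set against the median of all rows, the scales differed little: 61 members lay above it on each, and the members' median exceeded it by 0.21 on each.

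**Figure D2:**
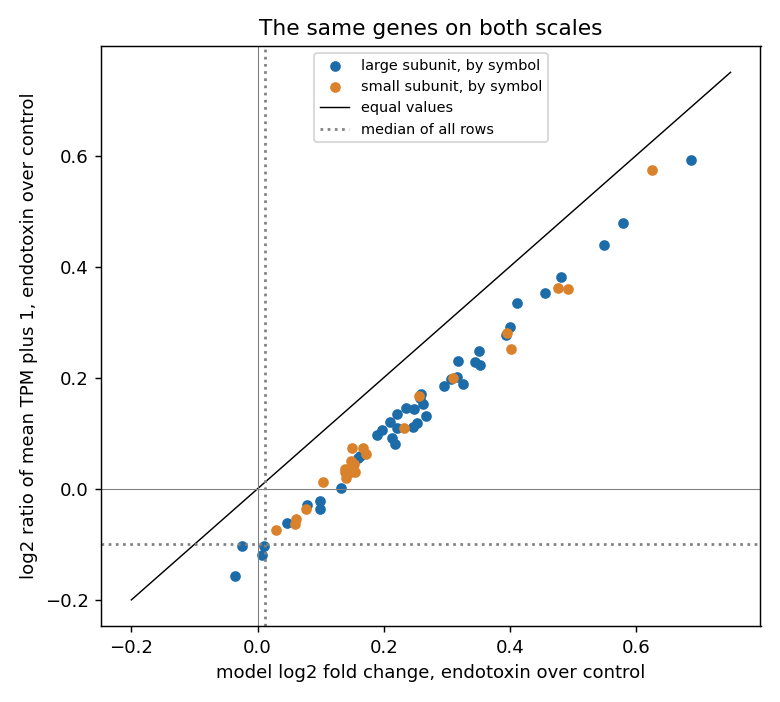
Log2 fold change of each member on the model scale (horizontal axis) and as the log2 ratio of mean TPM plus 1 (vertical axis), endotoxin over control, with dotted lines at the medians of all rows. The points run parallel to the line of equal values and below it, and 53 of 65 lie above 0 on the vertical axis, against 63 on the horizontal axis.

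Large and small subunit genes were then set side by side. The MRPL genes had a median log2 fold change of 0.25, with an interquartile range of 0.17 to 0.34, and 40 of 42 were positive in the authors' deposited table. The MRPS genes had a median of 0.15, with an interquartile range of 0.14 to 0.28, and 23 of 23 were positive. On the scale of mean TPM plus 1 the MRPL genes had a median of 0.14 with 34 of 42 positive, and the MRPS genes a median of 0.05 with 19 of 23 positive. The large minus small difference of 0.10 on the model scale was not tested, since genes are not replicates. By adjusted p 2 MRPL genes and 1 MRPS gene rose, or 4.76% and 4.35% of each subunit. Of all rows with a p 1.29% rose. An unadjusted p under 0.05 was reached by 15 MRPL genes (35.7%) and by 5 MRPS genes (21.7%), all higher. Of all rows with a p 7.58% were higher at that threshold, and of rows whose mean reached 5 TPM 10.5%. The summed mean level of the MRPL genes was 4436 TPM with endotoxin and 3916 TPM in controls, a ratio of 1.13. For the MRPS genes the sums were 2647 TPM with endotoxin and 2513 TPM in controls, a ratio of 1.05.

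Symbol and place in the ribosome do not always match. MRPS18A and MRPS30 carry small subunit symbols, but structures of mammalian mitochondrial ribosomes place both proteins in the large subunit. MRPS36 is a subunit of the 2-oxoglutarate dehydrogenase complex of the citric acid cycle and not of the ribosome. In the authors' deposited table MRPS18A was at 0.17 ± 0.17 (SE, adjusted p = 0.786), with 85.8 TPM with endotoxin and 82.1 TPM in controls. MRPS36 was at 0.10 ± 0.14 (SE, adjusted p = 0.887), with 225 TPM with endotoxin and 223 TPM in controls, in the authors' deposited table. Sorted by location, the 44 large subunit genes had a median of 0.25 and the 20 small subunit genes one of 0.15, so the difference again came to 0.10.

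By descent, 35 members were counted as having a bacterial homologue and 27 as specific to mitochondria, and 3 were not assigned. The MRPS18 genes are related to one another and to the same bacterial protein but were split, so the classes depend on this choice. MRPS18C was counted as a bacterial homologue and MRPS18B as mitochondria-specific, and MRPS18A was not assigned. MRPS18B is among the mitochondria-specific members with an unadjusted p under 0.05. Counting MRPS18B as a bacterial homologue would narrow the gap between the shares at that threshold given below. Bacterial homologues had a median log2 fold change of 0.22, and 35 of 35 were positive in the authors' deposited table. Of the mitochondria-specific members 25 of 27 were positive, with a median of 0.26 and an interquartile range of 0.14 to 0.40. On the scale of mean TPM plus 1 the positive members were 28 of 35 bacterial homologues, with a median of 0.11, and 22 of 27 mitochondria-specific members, with a median of 0.16. Both negative members, MRPL39 and MRPL51, belong to this class, as do MRPL40, MRPS25 and MRPL37 at the top of the order. An unadjusted p under 0.05 was reached by 8 of the 35 bacterial homologues (22.9%) and 11 of the 27 mitochondria-specific members (40.7%). Of all rows with a p 7.58% were higher at that threshold, and of rows whose mean reached 5 TPM 10.5%. The difference between the classes was not tested.

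Values were then read by site in the ribosome, for genes picked after values were seen. The lists are not complete for their sites. The 6 central protuberance genes picked were MRPL18, MRPL38, MRPL40, MRPL46, MRPL48 and MRPL58. Their values ran between 0.10 for MRPL46 and 0.69 for MRPL40, with a median of 0.30, in the authors' deposited table. At the stalk MRPL12 at 0.58 stood beside its partner MRPL10 at 0.10 ± 0.20 (SE, adjusted p = 0.947) and MRPL11, at the stalk base, at 0.22 ± 0.20 (SE, adjusted p = 0.748), in the authors' deposited table. Around the exit of the peptide tunnel and the membrane anchor, MRPL22, MRPL24, MRPL45 and MRPL47 were picked. These 4 had a median of 0.11, the lowest of the 3 large subunit lists read here. On the scale of mean TPM plus 1 their median was -0.01. Both medians rest on which genes were listed. MRPL17 and MRPL32, which the list leaves out, were higher, at 0.34 and 0.27. On the scale of mean TPM plus 1 MRPL17 was at 0.23 and MRPL32 at 0.13. Of the genes picked for the head of the small subunit, MRPS9 at 0.49 and MRPS7 at 0.40 had the largest values in the authors' deposited table. MRPS14 and MRPS24 were both at 0.15, and MRPS10 at 0.03. The 5 small subunit platform genes picked (MRPS6, MRPS11, MRPS15, MRPS18C and MRPS21) all lay between 0.06 and 0.15. None of them reached an unadjusted p under 0.05.

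Levels differed far more between members than between groups, although a ribosome holds most of these proteins as single copies. MRPS21 had the highest mean over both groups, with 469 TPM with endotoxin and 490.0 TPM in controls in the authors' deposited table. MRPS33 followed with 448 TPM with endotoxin and 437 TPM in controls, and MRPL57 with 489.7 TPM with endotoxin and 383 TPM in controls, in the authors' deposited table. MRPS6 and MRPL14 complete the 5 most abundant members, which together held 28.3% of the members' summed level with endotoxin and 29.5% in controls. The least abundant were MRPL32, at 5.53 TPM with endotoxin and 4.96 TPM in controls, MRPS30, at 8.10 TPM with endotoxin and 6.64 TPM in controls, and MRPS23, at 10.2 TPM with endotoxin and 9.94 TPM in controls, in the authors' deposited table. MRPS18B had 14.3 TPM with endotoxin and 11.0 TPM in controls, and MRPS22 had 13.5 TPM with endotoxin and 13.3 TPM in controls, in the authors' deposited table. The mean of the highest member was 91.4 times that of the lowest, and the median member stood at 73.0 TPM. The order of levels was nearly the same in both groups, with a Spearman's rho of 0.991 across the 65 members, which share their libraries. Level and log2 fold change were not ordered together, with a rho of -0.0014 across the same genes.

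**Figure D3:**
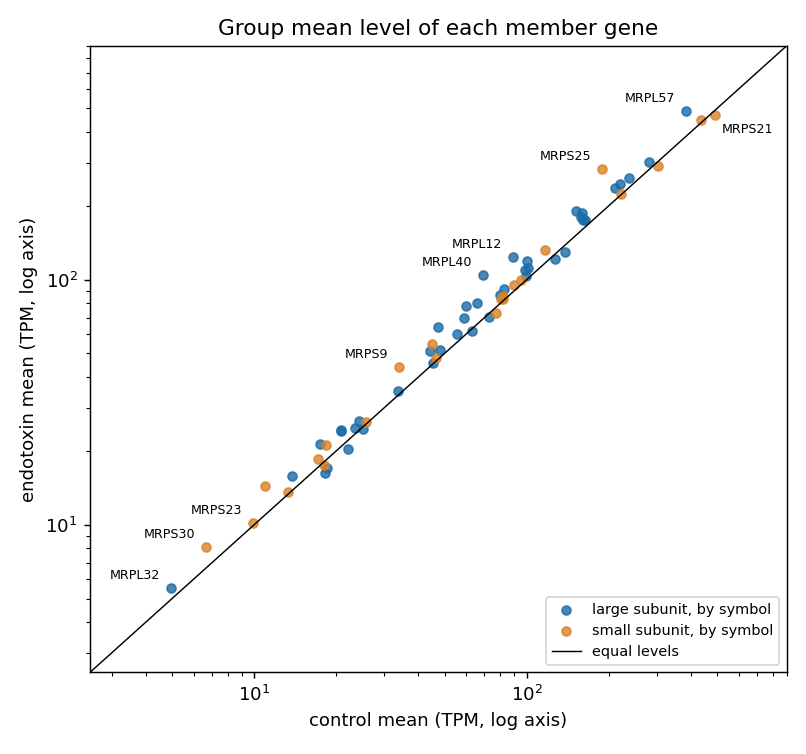
Group mean level of each member in TPM, endotoxin on the vertical axis and control on the horizontal axis, both logarithmic, with the line of equal levels. The genes span 5.53 to 489.7 TPM with endotoxin and 4.96 to 490.0 TPM in controls and keep close to the line, with MRPL40, MRPS25, MRPL12 and MRPS9 among those above it.

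The 65 members together took 0.708% of all TPM with endotoxin and 0.643% in controls. Their sums were 7083 TPM with endotoxin and 6429 TPM in controls in the authors' deposited table. The ratio of these sums was 1.10. In adrenal tissue more cells with many mitochondria and more of these transcripts per cell cannot be told apart. Markers of other cells moved in the same comparison. Of 11 neutrophil markers with a row 8 rose, and their summed level was 2060 TPM with endotoxin and 54.8 TPM in controls in the authors' deposited table. The 8 were S100A8, S100A9, S100A12, RETN, MPO, LTF, CSF3R and ELANE, and MMP8 was listed at 0 in controls. Of the 7 adrenal cortex markers STAR, CYP11A1, CYP17A1, HSD3B1 and FDX1 rose, with sums of 6378 TPM with endotoxin and 2543 TPM in controls. Of 11 macrophage markers MARCO rose, and of 7 erythroid markers HBM, with macrophage sums of 195 TPM with endotoxin and 144 TPM in controls and erythroid sums of 56.1 TPM with endotoxin and 34.2 TPM in controls. By adjusted p 1.29% of all rows with a p rose. None of the 4 chromaffin markers passed, and 2 were positive and 2 negative. PNMT and CHGB had the smallest p and went opposite ways. PNMT had 1306.5 TPM with endotoxin and 329.5 TPM in controls, at 2.07 ± 0.73 (SE, adjusted p = 0.123). CHGB had 2116 TPM with endotoxin and 3193 TPM in controls, at -0.43 ± 0.28 (SE, adjusted p = 0.559). The sums of the 4 markers, 8414 TPM with endotoxin and 8872 TPM in controls, do not show these opposite values. None of the 5 muscle markers (smallest p in TNNT1 and MYLPF) or the 6 liver and kidney markers (ALB and TTR) passed, with sums of 8.75 and 56.9 TPM with endotoxin and 10.7 and 70.8 TPM in controls. The part of these shifts in the members' values was not tested.

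Mitochondrial ribosomal proteins that carry other symbols had values within the same range. The small subunit proteins AURKAIP1 at 0.32 ± 0.14 (SE, adjusted p = 0.244), PTCD3 at 0.28 ± 0.14 (SE, adjusted p = 0.351), CHCHD1 at 0.23 and DAP3 at 0.18 were all positive, and none passed, in the authors' deposited table. In the authors' deposited table GADD45GIP1, of the large subunit, was at 0.39 ± 0.17 (SE, adjusted p = 0.268), and LACTB, once counted as one of its proteins, at 0.24 ± 0.23 (SE, adjusted p = 0.787).

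Genes that build and serve the mitochondrial ribosome had, in each list, a lower median on the scale of mean TPM plus 1 than on the model scale, as did the table as a whole. Of 23 assembly factors with a row 17 were positive on the model scale, with a median of 0.15, against 14 and 0.04 on the scale of mean TPM plus 1, and none passed. MPV17L2, an inner membrane protein needed for assembly, had the largest value, 0.75 ± 0.25 (SE, adjusted p = 0.0993), and RCC1L was at 0.36 ± 0.15 (SE, adjusted p = 0.231), in the authors' deposited table. All 15 mitochondrial translation factors with a row were positive on the model scale, with a median of 0.12, but 9 of 15 on the scale of mean TPM plus 1, with a median of 0.02, and none passed. The elongation factor TUFM came nearest, at 0.40 ± 0.16 (SE, adjusted p = 0.200), followed in the authors' deposited table by the deformylase PDF at 0.33 ± 0.18 (SE, adjusted p = 0.444). Of 17 aminoacyl-tRNA synthetases and related genes with a row 13 were positive on the model scale and 10 on the scale of mean TPM plus 1, with medians of 0.22 and 0.07, and 1 rose. This was CARS2, the mitochondrial cysteinyl-tRNA synthetase, at 71.8 TPM with endotoxin and 42.1 TPM in controls, in the authors' deposited table, a log2 fold change of 0.87 ± 0.24 (SE, adjusted p = 0.0236). By adjusted p 1.29% of all rows with a p rose. The regulators and enzymes of mitochondrial DNA expression were divided, with 8 of 15 positive, a median of 0.08 and none past the threshold, and their median was -0.02 with 7 positive on the scale of mean TPM plus 1. In the authors' deposited table POLRMT, the mitochondrial RNA polymerase that MRPL12 binds, was at 0.31 ± 0.16 (SE, adjusted p = 0.411), and ESRRA, an orphan nuclear receptor that promotes mitochondrial biogenesis, at 0.31 ± 0.18 (SE, adjusted p = 0.462).

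The messages that this ribosome translates come from the 13 protein-coding genes of mitochondrial DNA, all of them in the authors' deposited table. Of these 11 were positive, with a median of 0.13, and none passed, nor did any reach an unadjusted p under 0.05. On the scale of mean TPM plus 1 their median was 0.04 with 9 positive. Their summed level was 37901 TPM with endotoxin and 35405 TPM in controls, a ratio of 1.07. In the authors' deposited table ND3, a subunit of complex I, had the largest value, 0.35 ± 0.22 (SE, adjusted p = 0.517), and ND5, another, the lowest, -0.20 ± 0.35 (SE, adjusted p = 0.934). The errors of these genes, with a median of 0.24, were wider than those of the ribosomal proteins.

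Values for other large complexes give a scale for the pattern. The 31 proteasome subunits, without those of the immunoproteasome, had a median of 0.24, with 30 positive, 11 at an unadjusted p under 0.05 and none past the adjusted threshold, and on the scale of mean TPM plus 1 their median was 0.12 with 26 positive. The 25 nuclear-encoded complex I subunits had a median of 0.13, with 23 positive, 2 at an unadjusted p under 0.05 and none past the adjusted threshold, and a median of 0.03 with 15 positive on the scale of mean TPM plus 1. The 24 cytosolic ribosomal proteins with a row had a median of 0.04, with 17 positive and none below an unadjusted p of 0.05. On the scale of mean TPM plus 1 their median was -0.07 with 3 positive. Each list holds only genes with a row under a matching symbol, and the cytosolic list lacks many proteins of that ribosome. On the model scale small positive values in nearly every gene were thus found in the proteasome and complex I lists too, as in the 15 mitochondrial translation factors. On the scale of mean TPM plus 1 the proteasome list, with 26 of 31 positive, stood close to the members, with 53 of 65. Of all rows with a p 7.58% were higher at an unadjusted p under 0.05. The differences between these lists were not tested.

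**Figure D4:**
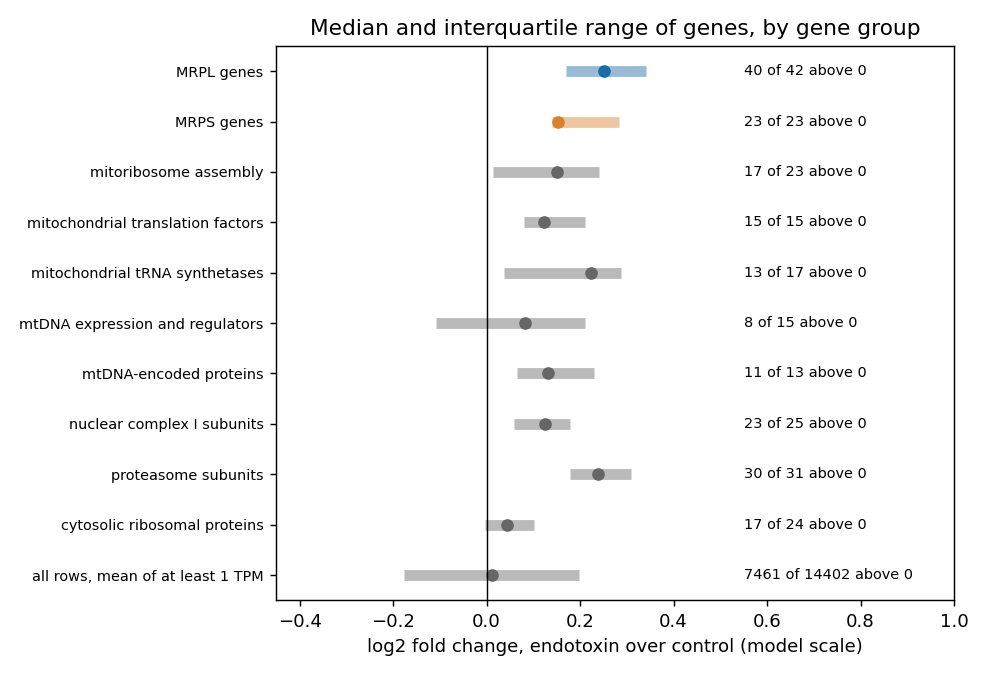
Median (point) and interquartile range (bar) of the log2 fold changes, endotoxin over control on the model scale, for MRPL and MRPS genes, genes that serve mitochondrial translation, the 13 mtDNA-encoded proteins, other complexes and all rows whose mean reached 1 TPM. The MRPL median of 0.25 and the proteasome median of 0.24 lie farthest right, and the median of all rows, 0.01, lies next to 0.

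Some members share genome sequence with other genes. In the RefSeq gene table of the sheep assembly ARS-UI_Ramb_v3.0, which is not the build named in the submitters' processing notes, 63 of the 65 symbols were found. Of these 11 overlap another protein-coding gene in their span, MRPS7 with MIF4GD and MRPL55 with GUK1 among them. Strand and exons were not compared, and whether reads of such pairs are divided between them was not tested. MRPL40, MRPL12 and MRPS9 overlap none there. MRPL46 and MRPS11, a large and a small subunit gene, are direct neighbours. They were at 0.10 ± 0.19 (SE, adjusted p = 0.940) and 0.15 ± 0.17 (SE, adjusted p = 0.843) in the authors' deposited table. A further 12 symbols of the same pattern in that gene table, such as MRPL13 and MRPS5, had no row among the members. Their genes were not analysed here, and their levels are not in the sums above.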

How the data were processed

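RNA of 10 adrenal libraries was sequenced with a directional kit, per the labels' protocols. Salmon 0.9.1, fastp 0.19.4, DESeq2 and the build Oar_v3.1 appear in the submitters' processing notes, with no role stated. The authors deposited estimated counts and TPM for 20781 gene IDs, of which the reference gene table held 0, so the count test planned for the members could not be made. These tables gave the library totals and the check of A and B. Grouping followed the titles.

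Values of members come from the authors' deposited table. Its group means each sum to 1000000 and were read as TPM. In all 19316 rows the deposited log2 column is the logarithm of the ratio of the means, each plus 1. The deposited score was read as a Wald score, since its two-sided normal p equals the deposited p-value, and the score times the standard error gave the log2 fold change printed. In 80 rows both p-values are set to 1, and these were left out of the 19236 rows counted as tested. Adjusted p-values are the authors'. Summaries used pandas 2.3.3, and the steps were tested on a simulated table.

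Members and lists were chosen with earlier results of these data known. The sites, the comparison complexes and the list of mtDNA-encoded genes were added after values were seen. Named members are those with a p under 0.05, the 6 largest and 6 smallest values, the 5 highest and 5 lowest levels, and those whose symbol and location differ. Of each other list those past the threshold or the 2 with the smallest p are named. ND3, ND5, CHCHD1, DAP3, CHGA and the site members were named after their values were seen. Alternatives covered the scale, the pseudocount, a minimum mean of 5, the threshold, the rows in the adjustment and the subunit assignment. The spread between samples may be technical, as the labels do not say that libraries are separate fetuses.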

Additional observations from a re-analysis of the deposited data

How the results depend on the processing

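Beyond the count of members called, the results for the whole family and its subunits kept their direction under each alternative run. On the scale of mean TPM plus 1 some medians were below 0. They were those of the 4 tunnel exit genes picked, the regulators of mitochondrial DNA expression and the cytosolic ribosomal proteins with a row. The tunnel exit median rests on which genes were listed. The members' median log2 fold change lay between 0.11 and 0.22, the large minus small difference between 0.09 and 0.10, the number of positive members between 53 and 63 and the ratio of summed levels between 1.10 and 1.11. The number of members called was 3, and it was 6 at an adjusted p under 0.1 and 20 at an unadjusted p under 0.05, as looser thresholds must give more. It was 3 when the adjustment ran over rows whose mean reached 1 TPM or, an alternative chosen after seeing the data, over rows with a gene symbol. A minimum mean of 5 TPM kept every member, and no member had 2 rows, so these alternatives changed no value. No paired analysis was possible because the members have no values per library, and for the same reason edgeR, DESeq2, a term for sex and leaving out libraries were not run. Whether 1 library sets a member's value is therefore unknown.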

Other observations

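MRPS36 belongs with the 2-oxoglutarate dehydrogenase complex, whose other subunits were looked up after its value was seen. In the authors' deposited table OGDH, the dehydrogenase component, was at 42.4 TPM with endotoxin and 31.3 TPM in controls, with a log2 fold change of 0.55 ± 0.21 (SE, adjusted p = 0.185). DLST, the succinyltransferase, was at 0.07 ± 0.11 (SE, adjusted p = 0.908) and DLD, the lipoamide dehydrogenase shared with other complexes, at 0.02 ± 0.14 (SE, adjusted p = 0.981) in the authors' deposited table. None passed the threshold, and DLST and DLD, like MRPS36 at 0.10, lay within 1 standard error of 0.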
